A study of Mus musculus with 15 samples.

Results

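The 45 genes described here encode proteins that hold retrotransposons in check: enzymes and readers of silent chromatin, enzymes that act on the nucleic acids of retroelements, and the small RNA and RNA decay machinery. They are a list of names drawn up by function, with earlier results of these data known. All 45 were found among the 34910 genes of the count table, and all 45 were among the 15141 genes with enough counts to be tested. Their transcript counts were summed to 1 value per gene and compared across 5 groups of 3 libraries of mouse neural progenitor cells.

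Neural progenitor cells are dividing precursors of neurons and glia. The cells were wild type, per the labels, and were kept with FGF2, EGF and heparin. All 5 groups, shControl included, were given plasmids that carry EGFP and encode an shRNA, a hairpin that directs the cell to RNAs it pairs with; after 3 days, cells with GFP were collected by flow sorting. The groups were shLINE_Orf1, shLINE_Orf2, shLINE_MdV_I, shLINE_Orf1 together with a full-length LINE-1 (shLINE_Orf1+LINE-1), and shControl, with 3 libraries each. The shRNAs were directed at young or at old LINE-1 elements, and the added LINE-1 was paired with the shRNA against young ones. The labels do not say which age of element shLINE_Orf2 and shLINE_MdV_I target. Nor do they say whether replicates were independent cultures, and the p-values therefore rest on a spread among libraries that may be technical. LINE-1 transcripts, and so the extent of knockdown, were not analysed here.

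LINE-1 is a retrotransposon, a repeat that copies itself through an RNA that it also reverse transcribes. Cells limit it first at the chromatin: KRAB zinc finger proteins bring in Trim28 and the histone methyltransferase Setdb1, and the HUSH complex spreads and reads the same H3K9 methylation over young LINE-1 elements. What is transcribed meets a second layer in the cytoplasm, made of RNA-binding proteins, nucleases and the enzyme that removes dNTPs. Neural progenitor cells are of interest because LINE-1 is known to be active in this lineage.

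The libraries held between 39204327 and 51070601 gene counts. Among 6 progenitor markers, Sox2 was at least at 141 CPM, Nes at 154 CPM and Vim at 1256 CPM in all 15 libraries. CPM is a gene's count relative to the scaled library size. Of the others, Fabp7 was at 3002 CPM or more, Hes5 lay between 21.6 and 53.1 CPM and Pax6 between 16.8 and 21.1 CPM. The summed microglia markers reached at most 2.51 CPM, with Aif1 at 0 in every library, whereas the summed neuron markers lay between 328 and 509.6 CPM and the astrocyte markers between 476 and 707 CPM. Most of the neuron sum was Map2, at 307 to 489 CPM. Tubb3 reached at most 15.5 CPM, Dcx 9.24, Snap25 7.90, Neurod1 1.19 and Stmn2 0.273 CPM. Most of the astrocyte sum was Sparcl1 and Aldoc, while S100b reached at most 20.1 CPM, Aqp4 7.88 and Gfap 6.64 CPM. In such bulk samples, fewer cells of a type and less RNA per cell cannot be told apart. Replicates differed by more than counting noise (at least 6.96 chi-square units per degree of freedom). shLINE_Orf1 replicate 1 stood apart from the other libraries on the first principal component, which held 23.9% of the variance: it scored 75.9, and the next highest, shControl replicate 2, scored 24.3. The estimates that involve shLINE_Orf1 moved without its replicate 1, and values without it, or without both libraries, stand beside them below.

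The genes spanned a range from transcripts among the more abundant to ones near the low end of what was counted. As TPM, which corrects for transcript length and for library size, the 45 genes had a median of 33.1 TPM in shControl, with 10 above 100 TPM and 6 below 10 TPM. The heterochromatin protein Cbx3 (HP1 gamma), which binds methylated H3K9, was highest, at 414.6 ± 22.3 TPM in shLINE_Orf1+LINE-1 and 424 ± 95.4 TPM in shControl (SD, n = 3 each). The deacetylase Hdac2 followed with 372 ± 65.2 TPM and Trim28, the scaffold that KRAB zinc finger proteins recruit, with 194 ± 18.7 TPM in shControl. The SDs of Cbx3 and Hdac2 overlapped in shControl, and that of Trim28 lay below both.

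The HUSH subunits were unequal in level. In shControl, Pphln1 (periphilin) stood at 110.2 ± 22.1 TPM, Mphosph8 (the subunit that reads methylated H3K9) at 18.3 ± 3.75 TPM and Fam208a (Tasor, the scaffold of the complex) at 3.15 ± 0.863 TPM. The lowest gene of all was Xrn1, a 5′ to 3′ exonuclease of cytoplasmic RNA decay, at 2.80 ± 1.47 TPM. Among genes that act on nucleic acids, the 3 subunits of ribonuclease H2, Rnaseh2a, Rnaseh2b and Rnaseh2c, lay between 80.6 and 107 TPM in shControl, whereas Samhd1, which removes dNTPs, had 17.7 ± 3.43 TPM and Mov10, an RNA helicase that restricts LINE-1, had 8.08 ± 1.80 TPM.

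**Figure D1:**
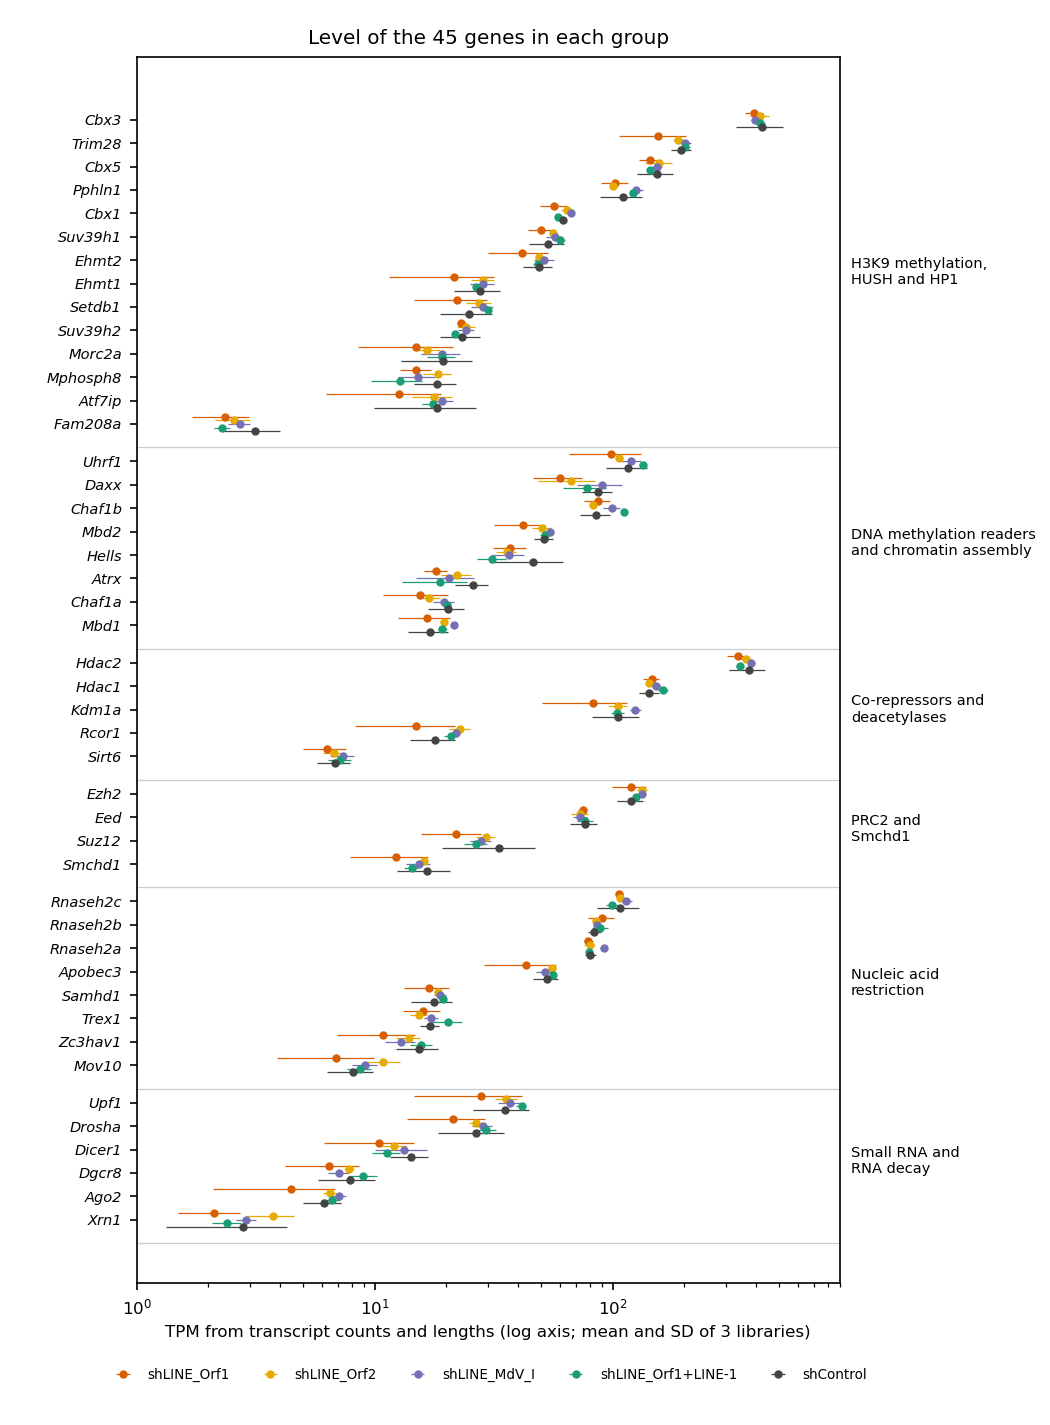
Level of each of the 45 genes in TPM (log axis), grouped by role and ordered within a role by the shControl mean. Points are means and bars SDs of 3 libraries per group, and the points of the 5 groups lie close together for most genes, with Cbx3 near 424 TPM and Xrn1 near 2.80 TPM in shControl.

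For several genes the abundant transcript is not a coding one. The transcript with the largest share of counts was annotated as subject to nonsense-mediated decay for Suv39h2 (an H3K9 methyltransferase, median 60.9% of the counts) and Cbx1 (HP1 beta, 66.2%), and as a retained intron for Apobec3 (a cytidine deaminase, 74.1%). The leading coding transcript of Daxx, a histone H3.3 chaperone that works with Atrx, took between 38.2% and 81.0% of that gene's counts across libraries. Gene sums do not separate these forms. Close relatives, such as Cbx1, Cbx3 and Cbx5, Hdac1 and Hdac2, or Morc2a and Morc2b, and their pseudogene copies can share reads, so the division of counts between them is uncertain.

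No gene of the 45 passed edgeR's test for a difference among the 5 groups. This quasi-likelihood test called 0 of 45 at a Benjamini-Hochberg adjusted p under 0.05, where it called 0.944% of the 15141 genes tested. At an unadjusted p under 0.05 there was 1 of 45, Chaf1b, against 1815 of the 15141 genes. DESeq2 called 1 of 45 in the same test, where it called 6.04% of all genes, and limma-voom called 3 of 45, where it called 9.97%. Both called Chaf1b: its adjusted p was 0.0240 with DESeq2 and 0.0155 with limma-voom, against 0.208 with edgeR.

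The comparisons of single groups gave the same count of 0 called by edgeR. Against shControl, it called 0 of 45 in shLINE_Orf1 (0.178% of all genes), 0 of 45 in shLINE_Orf2 (0.192%), 0 of 45 in shLINE_MdV_I (0.594%) and 0 of 45 in shLINE_Orf1+LINE-1 (0.139%). It called 0 of 45 for shLINE_Orf1+LINE-1 against shLINE_Orf1, where 0 of all genes were called (0%), and 0 of 45 for shLINE_MdV_I against the mean of shLINE_Orf1 and shLINE_Orf2 (0.462%). At an unadjusted p under 0.05 there were 4 of 45 in shLINE_Orf1 (10.5% of all genes), 2 in shLINE_Orf2 (7.01%), 1 in shLINE_MdV_I (8.63%) and 3 in shLINE_Orf1+LINE-1 (8.76%), each against shControl. There were 7 of 45 for shLINE_Orf1+LINE-1 against shLINE_Orf1 (11.1%) and 2 for shLINE_MdV_I against the mean (9.29%).

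The other tools gave few calls as well. DESeq2 called 0 of 45 in each of the 6 comparisons, where it called 1.42% of all genes in shLINE_Orf1, 1.16% in shLINE_Orf2, 2.01% in shLINE_MdV_I and 1.37% in shLINE_Orf1+LINE-1 against shControl, 0.132% for shLINE_Orf1+LINE-1 against shLINE_Orf1, and 1.76% for shLINE_MdV_I against the mean. limma-voom called 0 of 45 in shLINE_Orf1 (4.05% of all genes), 1 in shLINE_Orf2 (2.53%), 1 in shLINE_MdV_I (2.53%) and 0 in shLINE_Orf1+LINE-1 (3.54%) against shControl. It called 1 for shLINE_Orf1+LINE-1 against shLINE_Orf1 (2.62%) and 2 for shLINE_MdV_I against the mean (6.82%).

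The sizes that these data leave possible are given by the intervals from edgeR. With all 15 libraries, the 95% interval of all 45 log2 fold changes lay inside 1 in either direction in each of the 6 comparisons. That is inside a 2-fold change. The bound farthest from 0 was 0.85 for shLINE_Orf1 (Atf7ip), 0.90 for shLINE_Orf2 (Mov10), 0.79 for shLINE_MdV_I (Hells) and 0.92 for shLINE_Orf1+LINE-1 (Fam208a), each against shControl, as an absolute log2 value. Between 21 and 35 of the 45 intervals lay inside a 1.41-fold change. Between 1 and 7 of the 45 intervals left out 0, without adjustment for the number of genes tested. The others held 0 and changes of some size, so such changes could not be told from none. Without shLINE_Orf1 replicate 1 and shControl replicate 2, Atrx in shLINE_Orf1 against shControl was at -0.46 ± 0.31 (SE). Its interval passes a 2-fold change there, so the 2-fold limit holds only with all libraries.

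**Figure D2:**
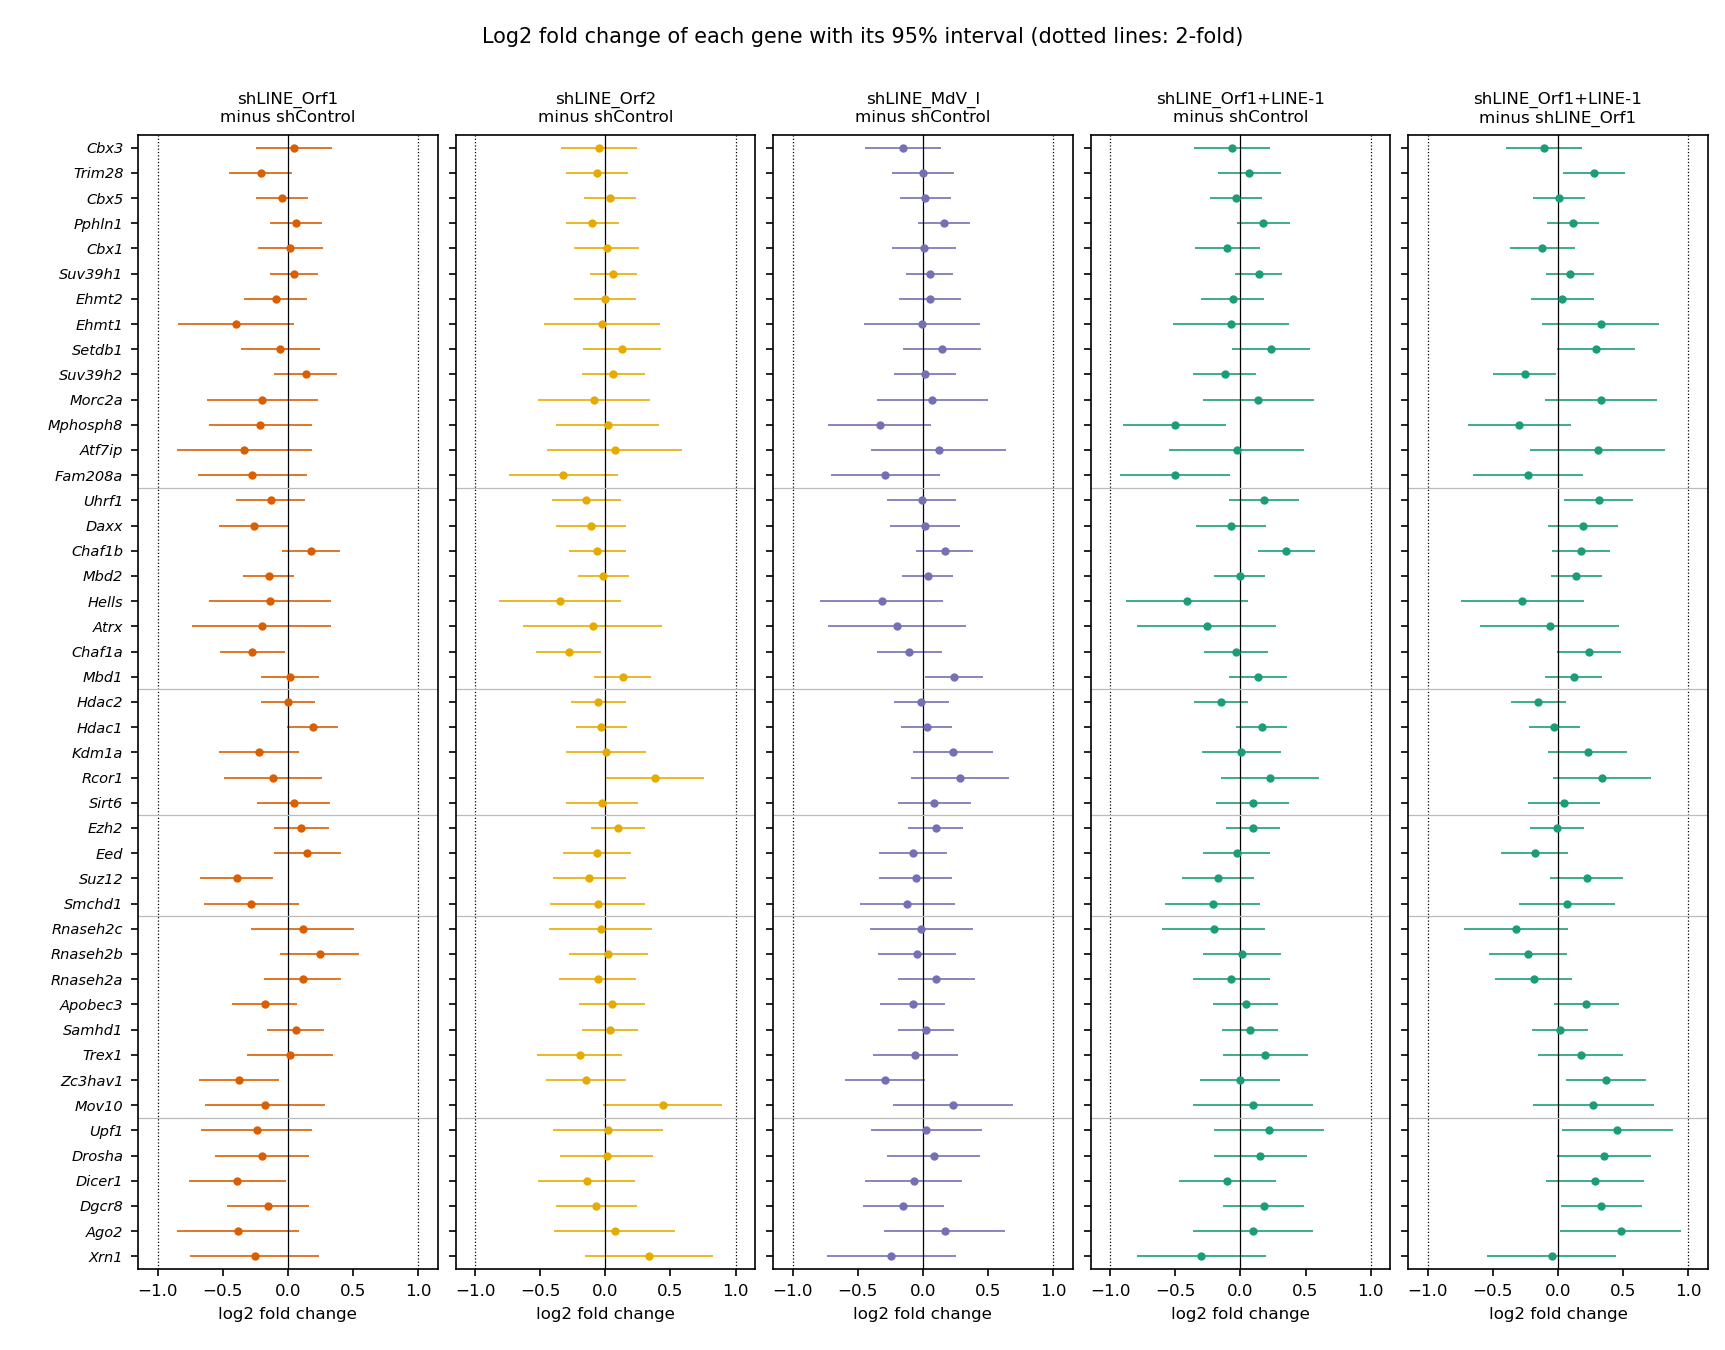
Log2 fold change (x axis) of each of the 45 genes, by role as in the plot of levels, in 5 comparisons named above the panels. Points are edgeR estimates, bars 95% intervals and dotted lines a 2-fold change; all 45 intervals in each panel lie between the dotted lines, and the widest belong to Atrx and Atf7ip.

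The genes that write and read H3K9 methylation form the largest group, 14 of the 45. Their median log2 fold change was -0.07 in shLINE_Orf1, 0.00 in shLINE_Orf2, 0.02 in shLINE_MdV_I and -0.05 in shLINE_Orf1+LINE-1, each against shControl, beside medians of all genes between -0.02 and -0.01. Setdb1, its partner Atf7ip, the methyltransferases Suv39h1, Suv39h2, Ehmt1 and Ehmt2, and the HP1 proteins Cbx1, Cbx3 and Cbx5 lay between -0.40 and 0.24 in these comparisons. The lowest of them, Ehmt1 in shLINE_Orf1, was at -0.14 without replicate 1 of that group. Trim28 had 289.5, 302 and 286 CPM in shLINE_Orf1+LINE-1 libraries, against 196, 254 and 274 CPM in shLINE_Orf1 libraries. It had 272, 254 and 275 CPM in shLINE_Orf2, 293, 281 and 263 CPM in shLINE_MdV_I and 259.6, 277 and 299.7 CPM in shControl libraries. The shLINE_Orf1+LINE-1 and shLINE_Orf1 libraries did not overlap, and the lowest value was that of the shLINE_Orf1 library that stands apart. The log2 fold change between them was 0.28 ± 0.11 (SE), with an edgeR adjusted p of 0.422, and it was 0.15 without that library. Morc2a, the effector that HUSH recruits, lay between -0.20 and 0.14 against shControl, and its estimate in shLINE_Orf1, the -0.20, was 0.03 without replicate 1.

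The HUSH subunits Mphosph8 and Fam208a were the genes of this group with the lowest estimates in shLINE_Orf1+LINE-1 against shControl. Mphosph8 (chr14:56668248-56697430, GRCm38, plus strand) had 14.6, 16.5 and 20.2 CPM in shLINE_Orf1+LINE-1 libraries, against 26.1, 27.0 and 19.8 CPM in shControl libraries. Fam208a (chr14:27428834-27483555, plus strand) had 8.80, 9.91 and 9.24 CPM in shLINE_Orf1+LINE-1 libraries, against 16.3, 12.3 and 11.1 CPM in shControl libraries. The groups of Mphosph8 overlapped by 1 library and those of Fam208a did not overlap. The log2 fold changes were -0.51 ± 0.19 and -0.50 ± 0.20 (SE), with unadjusted p of 0.0159 and 0.0219 and edgeR adjusted p of 0.439 and 0.467, so neither passed the test. The interval of Mphosph8 ran from -0.90 to -0.11 and that of Fam208a from -0.92 to -0.08. Without shControl replicate 1, the estimate of Fam208a was -0.32. Against shControl, its estimate in shLINE_Orf1 was -0.41 without replicate 1 of that group. The comparison that differs by LINE-1 alone is shLINE_Orf1+LINE-1 against shLINE_Orf1. There, without shLINE_Orf1 replicate 1, the estimates were -0.20 ± 0.20 for Mphosph8 and -0.10 ± 0.21 for Fam208a (SE). In the other groups Mphosph8 had 23.8, 19.97 and 19.17 CPM in shLINE_Orf1, 22.2, 22.9 and 28.7 CPM in shLINE_Orf2 and 15.4, 17.6 and 24.9 CPM in shLINE_MdV_I libraries. Fam208a had 12.8, 12.03 and 7.98 CPM in shLINE_Orf1, 11.6, 11.8 and 8.29 CPM in shLINE_Orf2 and 10.2, 9.68 and 12.6 CPM in shLINE_MdV_I libraries, so its lowest single values were not those with LINE-1 added, whereas the lowest value of Mphosph8 was.

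Pphln1 (chr15:93398350-93491510, plus strand), the HUSH subunit that binds RNA, had a higher estimate in the same group. It had 98.9, 93.7 and 93.0 CPM in shLINE_Orf1+LINE-1 libraries and 94.9, 97.7 and 90.7 CPM in shLINE_MdV_I libraries, against 87.9, 74.4 and 90.5 CPM in shControl libraries. It had 80.1, 78.7 and 77.2 CPM in shLINE_Orf2 libraries and 95.9, 88.0 and 79.9 CPM in shLINE_Orf1 libraries. The levels in shLINE_Orf2 were the lowest on average and varied least, and each shLINE_MdV_I library lay above each shLINE_Orf2 library. Across the 5 groups the unadjusted p was 0.0544 and the edgeR adjusted p was 0.425, which became 0.0332 without shLINE_Orf1 replicate 1 and shControl replicate 2, where 3 of the 45 genes and 6.03% of all genes were called. For shLINE_MdV_I against the mean of shLINE_Orf1 and shLINE_Orf2, the log2 fold change was 0.18 ± 0.08 (SE, edgeR adjusted p = 0.514), and limma-voom gave 0.25 with an adjusted p of 0.00509. The 3 subunits of 1 complex thus had estimates of both signs in shLINE_Orf1+LINE-1, and the difference between them was not tested.

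Of the genes that read DNA methylation, assemble chromatin or remodel it, 8 of the 45, the chromatin assembly factor subunit Chaf1b came nearest to a call. This factor lays down histones behind the replication fork. Chaf1b (ENSMUSG00000022945.12, chr16:93883901-93906115, plus strand) had 118, 117 and 122 CPM in shLINE_Orf1+LINE-1 libraries, against 85.7, 93.5 and 101 CPM in shControl libraries. It had 115, 90.1 and 112 CPM in shLINE_Orf1 libraries, 86.8, 85.8 and 95.7 CPM in shLINE_Orf2 libraries, and 103, 112 and 99.8 CPM in shLINE_MdV_I libraries. Each of the 3 shLINE_Orf1+LINE-1 libraries lay above each of the other libraries, and shLINE_Orf2 and shControl were lowest. The log2 fold change against shControl was 0.35 ± 0.10 (SE), a 1.28-fold higher level, with an unadjusted p of 0.00377 and an edgeR adjusted p of 0.252. In the test across the 5 groups, the edgeR adjusted p was 0.0331 without shLINE_Orf1 replicate 1 and shControl replicate 2. The 3 of 45 genes called there, where 6.03% of all genes were, are Chaf1b, Pphln1 and Xrn1, the last with an adjusted p of 0.0460.

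Its partner Chaf1a, the large subunit of the same factor, had values of another pattern. Chaf1a (chr17:56040439-56072289, plus strand) had 60.6, 66.1 and 64.5 CPM in shLINE_Orf1+LINE-1 libraries, against 61.0, 62.1 and 72.6 CPM in shControl libraries, and the groups overlapped. It had 59.1, 49.4 and 52.4 CPM in shLINE_Orf2 libraries and 45.2, 58.7 and 58.2 CPM in shLINE_Orf1 libraries. It had 64.8, 61.2 and 55.8 CPM in shLINE_MdV_I libraries. Each shLINE_Orf1 and shLINE_Orf2 library lay below each shControl library. The log2 fold changes were -0.28 ± 0.12 in shLINE_Orf2 and -0.27 ± 0.12 in shLINE_Orf1 (SE), with edgeR adjusted p of 0.611 and 0.447, and the estimate in shLINE_Orf1 was -0.16 without its replicate 1. limma-voom gave -0.42 with an adjusted p of 0.0148 in shLINE_Orf2. The 2 comparisons share the shControl libraries.

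Among the other genes of this group, Uhrf1, which brings DNA methylation to newly copied DNA, had 263, 271 and 256 CPM in shLINE_Orf1+LINE-1 libraries, against 168, 228 and 240.2 CPM in shLINE_Orf1 libraries. The groups did not overlap, and the log2 fold change was 0.31 ± 0.12 (SE, edgeR adjusted p = 0.422), and 0.17 without shLINE_Orf1 replicate 1. Uhrf1 had 212, 198 and 219 CPM in shLINE_Orf2, 249.9, 231 and 212 CPM in shLINE_MdV_I and 221, 214 and 262 CPM in shControl libraries, so 1 shControl library reached the level with LINE-1. Mbd1, a reader of methylated DNA, had 37.1, 35.6 and 34.7 CPM in shLINE_MdV_I libraries, against 34.5, 28.4 and 28.2 CPM in shControl libraries, with each shLINE_MdV_I library above each shControl one. Its log2 fold change was 0.24 ± 0.10 (SE, edgeR adjusted p = 0.530), and limma-voom gave 0.30 with an adjusted p of 0.0426. Daxx had 47.6, 48.6 and 42.4 CPM in shLINE_MdV_I libraries, against 30.0, 43.9 and 40.4 CPM in shLINE_Orf1 and 41.5, 40.3 and 45.1 CPM in shLINE_Orf2 libraries. Those groups overlapped, and the log2 fold change against their mean was 0.20 ± 0.11 (SE, edgeR adjusted p = 0.596), and 0.13 without shLINE_Orf1 replicate 1. Hells, a remodeller needed for DNA methylation of repeats, Atrx and Mbd2 lay between -0.41 and 0.04 against shControl. Without shLINE_Orf1 replicate 1, the estimates in shLINE_Orf1 were -0.48 for Atrx, -0.40 for Hells and -0.10 for Mbd2. With all libraries, the lowest estimate of the 8 genes there was -0.27, so Atrx and Hells moved away from 0.

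**Figure D3:**
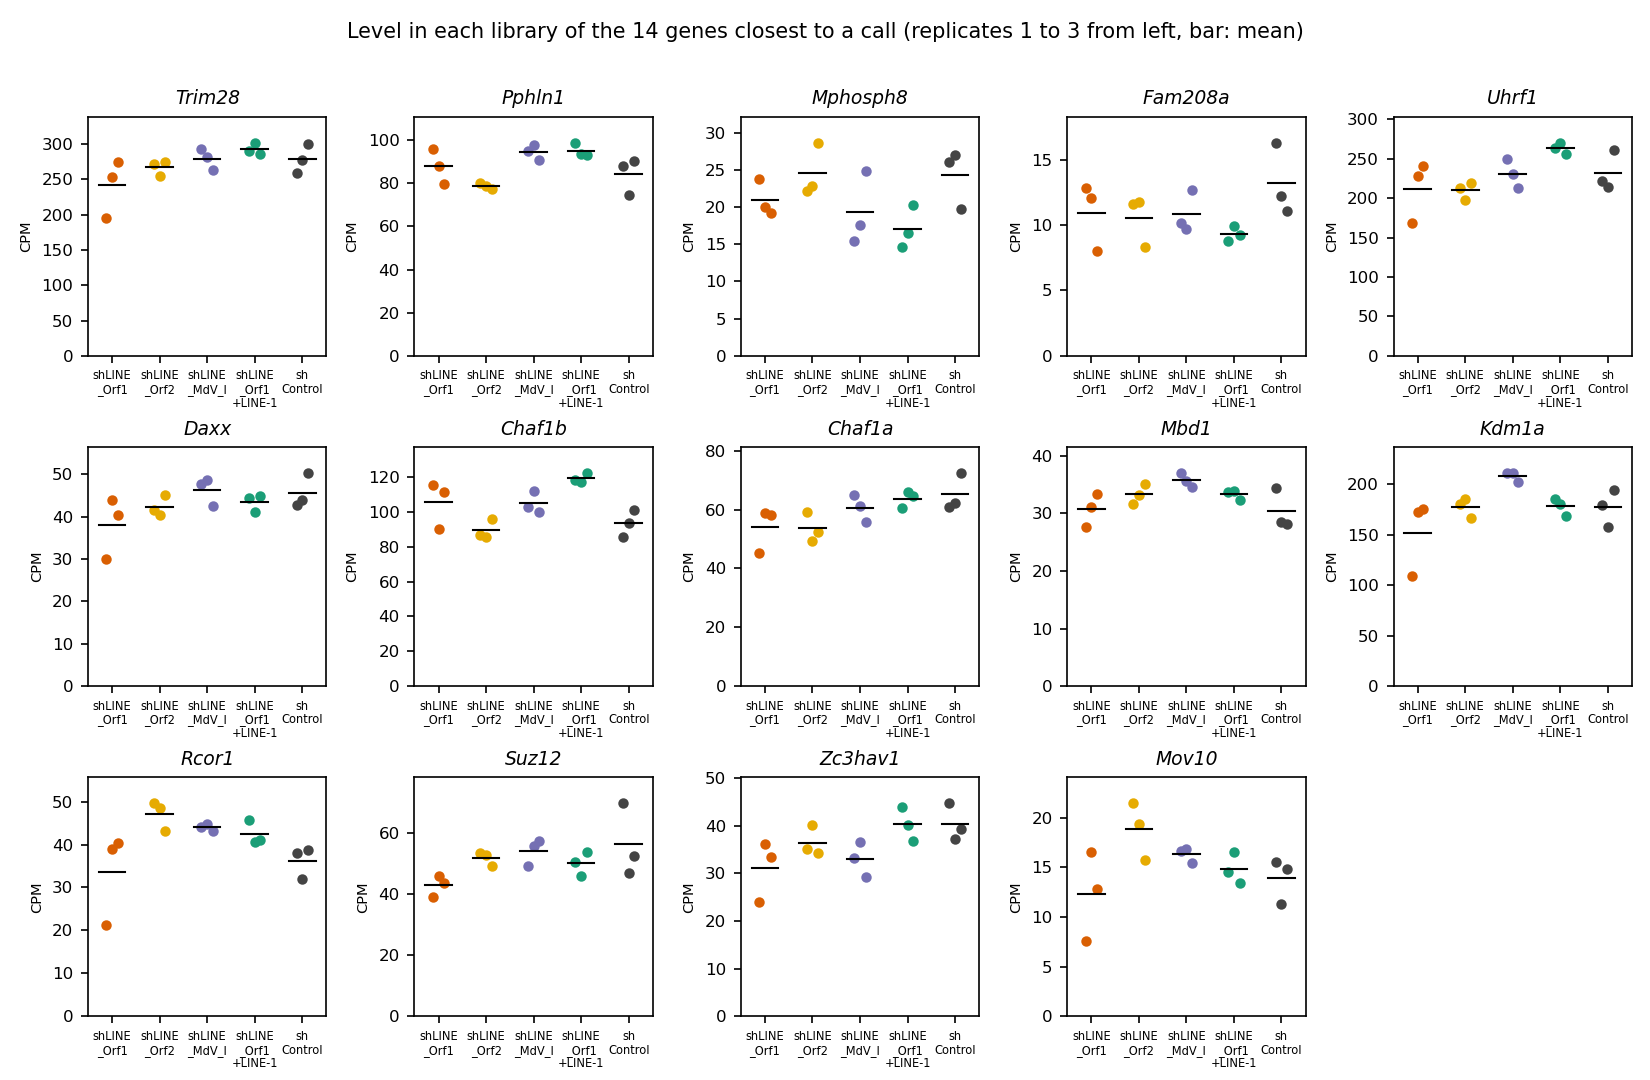
Level in CPM (y axis, from 0) of the 14 genes that were among the 3 with the smallest p in at least 1 test, in each of the 15 libraries, with the groups along the x axis. Points are replicates 1 to 3 from left to right and bars are group means; Chaf1b lies at 117 to 122 CPM in shLINE_Orf1+LINE-1, and shLINE_Orf1 replicate 1 is the lowest point of all for 10 of the 14 genes, Kdm1a and Rcor1 among them.

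The co-repressor genes hold Kdm1a, a demethylase of histone H3, with its partner Rcor1 (CoREST) and the deacetylases Hdac1, Hdac2 and Sirt6. Kdm1a (chr4:136550540-136602723, minus strand) had 211, 211 and 202 CPM in shLINE_MdV_I libraries, against 109, 172 and 175 CPM in shLINE_Orf1, 181, 185 and 167 CPM in shLINE_Orf2 and 179.6, 158 and 194 CPM in shControl libraries. It had 185, 180.3 and 168 CPM in shLINE_Orf1+LINE-1 libraries. Every shLINE_MdV_I library lay above every other library. Against the mean of shLINE_Orf1 and shLINE_Orf2, the log2 fold change was 0.34 ± 0.12 (SE), with an unadjusted p of 0.0144 and an edgeR adjusted p of 0.381. Without shLINE_Orf1 replicate 1 and shControl replicate 2 it was 0.25 with an adjusted p of 0.0384, where 1.66% of all genes were called, and limma-voom gave 0.25 with 0.0162. With the third number of the library description (1 or 12, of unstated meaning) as a covariate, it was 0.53 (edgeR adjusted p = 0.0352). There, 2 of the 45 genes (Ehmt1 besides) and 3.37% of all genes were called. The number was 12 only for shLINE_Orf1 replicate 1 and shLINE_MdV_I replicates 2 and 3. This covariate is thus partly tied to the groups compared and to the library that stands apart.

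Rcor1 was highest in another group. It had 49.7, 48.5 and 43.0 CPM in shLINE_Orf2 libraries, against 37.9, 32.0 and 38.7 CPM in shControl libraries. It had 21.2, 38.9 and 40.4 CPM in shLINE_Orf1, 44.1, 44.8 and 43.2 CPM in shLINE_MdV_I and 45.6, 40.5 and 41.0 CPM in shLINE_Orf1+LINE-1 libraries. All shLINE_Orf2 libraries lay above all shControl libraries, as did those of shLINE_MdV_I and shLINE_Orf1+LINE-1. For shLINE_Orf2 against shControl, the log2 fold change was 0.38 ± 0.18 (SE, edgeR adjusted p = 0.705). Hdac1, Hdac2 and Sirt6 lay between -0.15 and 0.19 against shControl in all 4 groups, and none of them passed the test.

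The Polycomb genes place a second silencing mark, H3K27 methylation, and Smchd1 holds the inactive X chromosome and imprinted loci silent. Suz12, a core subunit of Polycomb complex PRC2, had 39.0, 45.9 and 43.5 CPM in shLINE_Orf1 libraries, against 69.7, 46.7 and 52.3 CPM in shControl libraries. Each shLINE_Orf1 library lay below each shControl library, and 1 shControl library, replicate 1, was far above the others. The log2 fold change was -0.39 ± 0.13 (SE), with an unadjusted p of 0.00905 and an edgeR adjusted p of 0.351, and it was -0.21 without shControl replicate 1. It was -0.34 without shLINE_Orf1 replicate 1 (edgeR adjusted p = 0.576). Without that library and shControl replicate 2 it was -0.45 (edgeR adjusted p = 0.0847). Suz12 had 53.3, 52.7 and 48.9 CPM in shLINE_Orf2, 49.2, 55.6 and 57.3 CPM in shLINE_MdV_I and 50.3, 45.9 and 53.6 CPM in shLINE_Orf1+LINE-1 libraries. Ezh2, the methyltransferase of the same complex, and Eed, which reads its mark, had estimates of 0.10 and 0.15 in shLINE_Orf1, so the 3 subunits did not share a sign there; without shLINE_Orf1 replicate 1 they were 0.07 and 0.01. Smchd1 lay between -0.28 and -0.06 against shControl, with the -0.28 of shLINE_Orf1 at -0.14 without its replicate 1.

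The 8 genes that act on nucleic acids had medians of 0.04 in shLINE_Orf1, -0.01 in shLINE_Orf2, -0.03 in shLINE_MdV_I and 0.03 in shLINE_Orf1+LINE-1 as log2 fold changes against shControl. Zc3hav1 (ZAP), which binds CpG-rich RNA of viruses and retroelements, had 23.9, 36.1 and 33.4 CPM in shLINE_Orf1 and 33.2, 36.5 and 29.2 CPM in shLINE_MdV_I libraries, against 44.8, 37.2 and 39.2 CPM in shControl libraries. It had 44.0, 40.03 and 36.9 CPM in shLINE_Orf1+LINE-1 and 35.1, 40.2 and 34.2 CPM in shLINE_Orf2 libraries. All 6 shLINE_Orf1 and shLINE_MdV_I libraries lay below all shControl libraries, and those with added LINE-1 lay in the range of shControl or just under it. The log2 fold changes were -0.38 ± 0.14 in shLINE_Orf1, -0.29 ± 0.14 in shLINE_MdV_I, and 0.37 ± 0.14 (SE) for shLINE_Orf1+LINE-1 against shLINE_Orf1. Their edgeR adjusted p were 0.410, 0.612 and 0.422. Without shLINE_Orf1 replicate 1, the first was -0.22 and the last was 0.21.

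Mov10 had 21.5, 19.3 and 15.7 CPM in shLINE_Orf2 libraries, against 15.6, 11.3 and 14.8 CPM in shControl libraries. It had 7.55, 16.6 and 12.8 CPM in shLINE_Orf1, 16.6, 16.9 and 15.5 CPM in shLINE_MdV_I and 14.6, 16.5 and 13.5 CPM in shLINE_Orf1+LINE-1 libraries. The shLINE_Orf2 and shControl libraries did not overlap, though by little, and the log2 fold change was 0.44 ± 0.22 (SE, edgeR adjusted p = 0.750), with an interval that ran from -0.02 to 0.90. Samhd1 lay between 22.3 and 26.5 CPM in all 15 libraries. Trex1, which degrades cytoplasmic DNA, Apobec3 and the ribonuclease H2 subunits lay between -0.21 and 0.24 against shControl.

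The small RNA and decay genes hold Drosha and Dgcr8, which cut primary microRNA transcripts, Dicer1, which cuts the precursors, Ago2, which slices targets, and Xrn1 and Upf1, of cytoplasmic decay and nonsense-mediated decay. All 6 had a negative estimate in shLINE_Orf1 against shControl, between -0.39 and -0.15, where 51.4% of all genes were negative. edgeR called 0 of 6, as did DESeq2 and limma-voom, and 1 of 6, Dicer1, had an unadjusted p under 0.05 with edgeR, where 10.5% of all genes did. Without shLINE_Orf1 replicate 1 the 6 estimates lay between -0.17 and 0.01: Dicer1 was at -0.17, Ago2 at -0.09 and Upf1 at 0.01. Ago2 had 19.8, 49.0 and 43.4 CPM in shLINE_Orf1 libraries, against 47.6, 45.2 and 53.6 CPM in shControl libraries. Upf1 had 47.1, 98.5 and 87.9 CPM in shLINE_Orf1 libraries, against 96.3, 74.9 and 104 CPM in shControl libraries. In both genes 1 of the 3 shLINE_Orf1 libraries was far below the others, and it was replicate 1. For shLINE_Orf1+LINE-1 against shLINE_Orf1, 3 of the 6, Upf1, Dgcr8 and Ago2, had an unadjusted p under 0.05, with log2 fold changes of 0.46 ± 0.20, 0.33 ± 0.15 and 0.48 ± 0.22 (SE) and an edgeR adjusted p of 0.422 each, where 11.1% of all genes had an unadjusted p under 0.05. Without shLINE_Orf1 replicate 1 these were 0.20 for Upf1, 0.21 for Dgcr8 and 0.18 for Ago2, with unadjusted p of 0.137, 0.156 and 0.0977, so none stayed under 0.05. Suv39h2 had an unadjusted p under 0.05 there with a negative estimate, of -0.26 ± 0.11 (SE), and it was -0.14 without that library, with an unadjusted p of 0.201.

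That library stood apart over the list as well. The sum of the 6 small RNA and decay genes was 146 CPM in shLINE_Orf1 replicate 1 and between 221 and 303 CPM in each of the other libraries. This library held the lowest of 15 values for 23 of the 45 genes, or 51.1%, where 29.5% of all genes were lowest in it. Its deviation from the mean of the other libraries went with gene length in transcript bases: across all genes, Spearman's rho was -0.53, and across the 45 it was -0.48, as a description over genes that share a library. The 22 genes longer than the median of 3008 bases had a median log2 deviation from the shControl mean of -0.52 in it, and the 23 shorter ones had 0.13, a split chosen after the values were seen. In shControl replicate 2, rho was -0.46 across all genes and -0.34 across the 45, whereas shControl replicate 1 had 0.42 across all genes and replicate 3 had 0.29. The part of transcript length or RNA quality in the results was not tested.

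**Figure D4:**
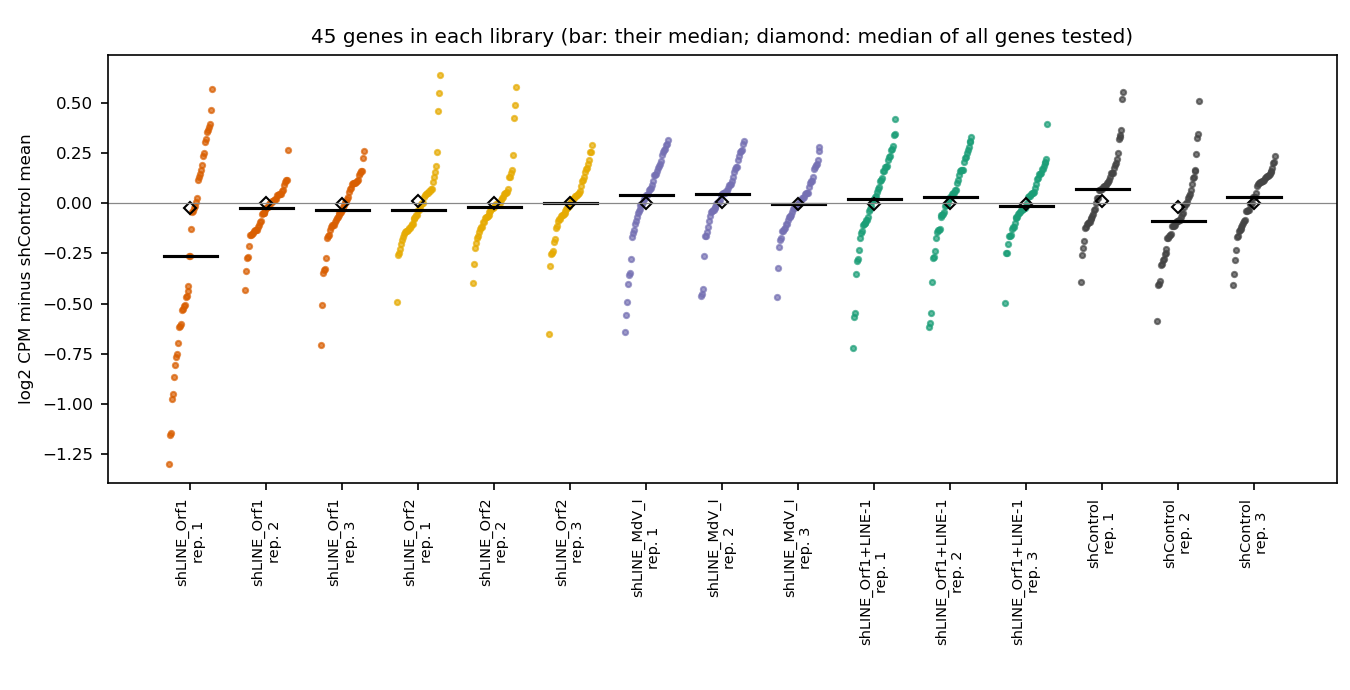
Log2 CPM minus the shControl mean (y axis) for each of the 45 genes in each of the 15 libraries (x axis), sorted within a library. Bars are medians of the 45 genes and diamonds medians of all 15141 genes tested; the bar of shLINE_Orf1 replicate 1 is at -0.26, and those of the other libraries lie within 0.09 of 0.

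With all libraries, the median log2 fold change of the 45 genes in shLINE_Orf1 against shControl was -0.14, where that of all genes was -0.01, and 28 of 45 were negative, where 51.4% of all genes were. Without shLINE_Orf1 replicate 1 the median was -0.03, without shControl replicate 2 it was -0.17, and without both it was -0.09. The number of negative estimates was 28 of 45 without shLINE_Orf1 replicate 1 as well, and 31 without both. All 3 shLINE_Orf1 libraries lay below all shControl libraries for 4 genes and above for 0, where 4.40% and 4.88% of all genes did. The 4 genes at an unadjusted p under 0.05 became 1 without shLINE_Orf1 replicate 1 and 13 without shLINE_Orf1 replicate 2, and 10 without shControl replicate 2, so this count followed single libraries. For shLINE_Orf1+LINE-1 against shLINE_Orf1 the median was 0.12 with 30 of 45 positive, and it was 0.05 without shLINE_Orf1 replicate 1. Negative estimates made up 50.9% of all genes there. In that comparison, 11 genes had all LINE-1 libraries above all shLINE_Orf1 libraries and 2 had them below, where 9.46% and 7.95% of all genes did. The count of 7 genes at an unadjusted p under 0.05 became 1 without shLINE_Orf1 replicate 1, 1 without shLINE_Orf1+LINE-1 replicate 2, and 17 without shLINE_Orf1 replicate 2. With a library left out, the share of all genes under this threshold was not computed. The counts of both comparisons in those settings therefore cannot be set against all genes.

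shLINE_Orf2 lay close to shControl over the list. The median log2 fold change of the 45 genes was -0.03 with 26 negative, where that of all genes was -0.01 with 52.3% negative. All 3 libraries lay above all shControl libraries for 2 genes and below for 1, where 6.90% and 5.12% of all genes did.

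With LINE-1 added, the 45 genes were centred on shControl. The median log2 fold change of the 45 genes in shLINE_Orf1+LINE-1 against shControl was -0.00, with 22 positive and 23 negative, where 53.7% of all genes were negative. All 3 libraries lay above all shControl libraries for 5 genes and below for 2, where 9.53% and 7.27% of all genes did. Chaf1b, Uhrf1 and Chaf1a are used most in S phase, so a list of 24 genes of DNA replication was set beside them. Of these, 0 of 24 was called by edgeR (0.139% of all genes), with 6 at an unadjusted p under 0.05 (8.76% of all genes). Without shLINE_Orf1 replicate 1 and shControl replicate 2, 3 of 24 were called higher, where 2.29% of all genes were called. With all libraries 21 of 24 were positive with a median of 0.16, and their sum was between 4966 and 5035 CPM in shLINE_Orf1+LINE-1 libraries, against 4459 to 4503 CPM in shControl libraries. The sums of these 2 groups did not overlap. In shLINE_Orf1 libraries, without LINE-1, the sums were 4930, 4435 and 4795 CPM. Those of replicates 1 and 3 thus also lay above all shControl libraries, and all 3 lay below those with LINE-1. For shLINE_Orf1+LINE-1 against shLINE_Orf1, 14 of 24 estimates were positive, with a median of 0.05. In that comparison 6 had an unadjusted p under 0.05 (11.1% of all genes). The part of this list in the level of Chaf1b was not tested.

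To show which of the 45 genes carry a sequence linked to S-phase control in their promoter, RefSeq promoters (GRCm38.p6, from 250 bases before to 50 bases after the start) were searched for TTTNGCGC (GCGCNAAA on the other strand), the letters of an E2F site. The table holds 32851 promoters of 27025 genes, and 1.57% of these genes held a match. Of the 39 of the 45 genes with a promoter in that table, 5 held it (12.8%): Ezh2, Cbx3, Pphln1, Cbx5 and Uhrf1. Chaf1b and Chaf1a were not among these 5, though genes without a promoter in that table were not searched. Of the 19 replication genes with a promoter there, 6 held it (31.6%). Of 24 interferon-response genes with a promoter there, from a list described below, 2 held it (8.33%). The windows below show the match in capitals, 5′ to 3′ on the strand of the gene, for 3 of the 45 genes and for Mcm6 and Pola1, a helicase subunit and a polymerase subunit of replication; the capitals of Mcm6 join overlapping matches.
Uhrf1, chr17:56304113-56304152, plus strand: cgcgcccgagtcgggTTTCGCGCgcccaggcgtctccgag
Pphln1, chr15:93398218-93398257, plus strand: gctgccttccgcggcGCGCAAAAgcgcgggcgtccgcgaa
Cbx3, chr6:51470433-51470472, plus strand: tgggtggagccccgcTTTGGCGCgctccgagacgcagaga
Mcm6, chr1:128359791-128359830, minus strand: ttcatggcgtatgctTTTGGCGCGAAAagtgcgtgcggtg
Pola1, chrX:93632269-93632308, minus strand: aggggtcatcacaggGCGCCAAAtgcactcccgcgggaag
A match describes letters and not a bound site. Of the 5 genes with a match, the log2 fold change in shLINE_Orf1+LINE-1 against shControl was 0.18 ± 0.12 for Uhrf1, 0.18 ± 0.09 for Pphln1, 0.09 ± 0.10 for Ezh2, -0.04 ± 0.09 for Cbx5 and -0.07 ± 0.14 for Cbx3 (SE), and none was called.

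Part of a related set of genes fell in shLINE_MdV_I. Of a list of 28 interferon-response genes, which include restriction factors for viruses and retroelements, 8 fell in shLINE_MdV_I against shControl by edgeR's test, where 0.594% of all genes were called. The estimate was negative for 27 of 28, where 52.4% of all genes were negative, and the median log2 fold change was -0.53. The count was 4 without shControl replicate 2, where 0.369% of all genes were called, and 17 without that library and shLINE_Orf1 replicate 1, where 2.53% of all genes were called. Earlier results on these data had shown the lower interferon genes, so the list is not independent evidence of its direction. The summed list was between 1252 and 1299 CPM in shLINE_MdV_I libraries, against 1600 to 2054 CPM in shControl libraries. Irf7, a transcription factor that drives interferon genes, fell by 1.25 ± 0.18 (SE, edgeR adjusted p = 0.00422). Bst2 (tetherin), which holds budding viruses at the membrane and restricts retroelements, fell by 0.78 ± 0.14 (SE, edgeR adjusted p = 0.0203). B2m, the light chain of MHC class I, fell by 0.89 ± 0.15 (edgeR adjusted p = 0.0152), and Oas1a, a sensor of double-stranded RNA, fell by 1.34 ± 0.22 (edgeR adjusted p = 0.0109).

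edgeR called 0 of the 45 genes in that comparison (0.594% of all genes), and limma-voom called Mbd1, as given above. Their median log2 fold change in shLINE_MdV_I against shControl was 0.02, with 25 positive and 20 negative, where 52.4% of all genes were negative, and it was -0.02 without shControl replicate 2. All 3 libraries lay above all shControl libraries for 4 genes and below for 1, where 8.22% and 6.65% of all genes did. Against the mean of shLINE_Orf1 and shLINE_Orf2 the median was 0.07 with 17 negative, where 51.4% of all genes were, and the groups did not overlap for 1 gene higher and 0 lower, where 3.09% and 3.01% of all genes did. Among those that act on nucleic acids, Apobec3 had 53.0, 48.0 and 47.4 CPM in shLINE_MdV_I libraries, against 49.5, 53.0 and 54.0 CPM in shControl libraries, and the groups overlapped. Its log2 fold change was -0.08 ± 0.12 (SE), with an interval from -0.33 to 0.17 that does not reach the estimate of Bst2. Samhd1 had 0.02 ± 0.10, with an interval from -0.19 to 0.24. In the same comparison 1 of 5 tested neuron markers, Snap25, rose by 0.83 on the log2 scale (edgeR adjusted p = 0.0182), and the summed neuron markers were between 421 and 450.04 CPM in shLINE_MdV_I libraries, against 328 to 509.6 CPM in shControl libraries. Of 5 astrocyte markers 1, Sparcl1, fell by 0.90 (edgeR adjusted p = 0.000872), while Aldoc had an estimate of 0.28 (edgeR adjusted p = 0.298), and their sum was between 476 and 534 CPM in shLINE_MdV_I libraries, against 623 to 702 CPM in shControl libraries. All 4 tested markers of the oligodendrocyte lineage had positive estimates, between 0.35 and 0.60, 0 of them called by edgeR and 1 at an unadjusted p under 0.05. Their sum was between 24.6 and 39.7 CPM in shLINE_MdV_I libraries, against 19.4 to 26.2 CPM in shControl libraries. The part of these markers in the interferon or restriction genes was not tested.

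**Figure D5:**
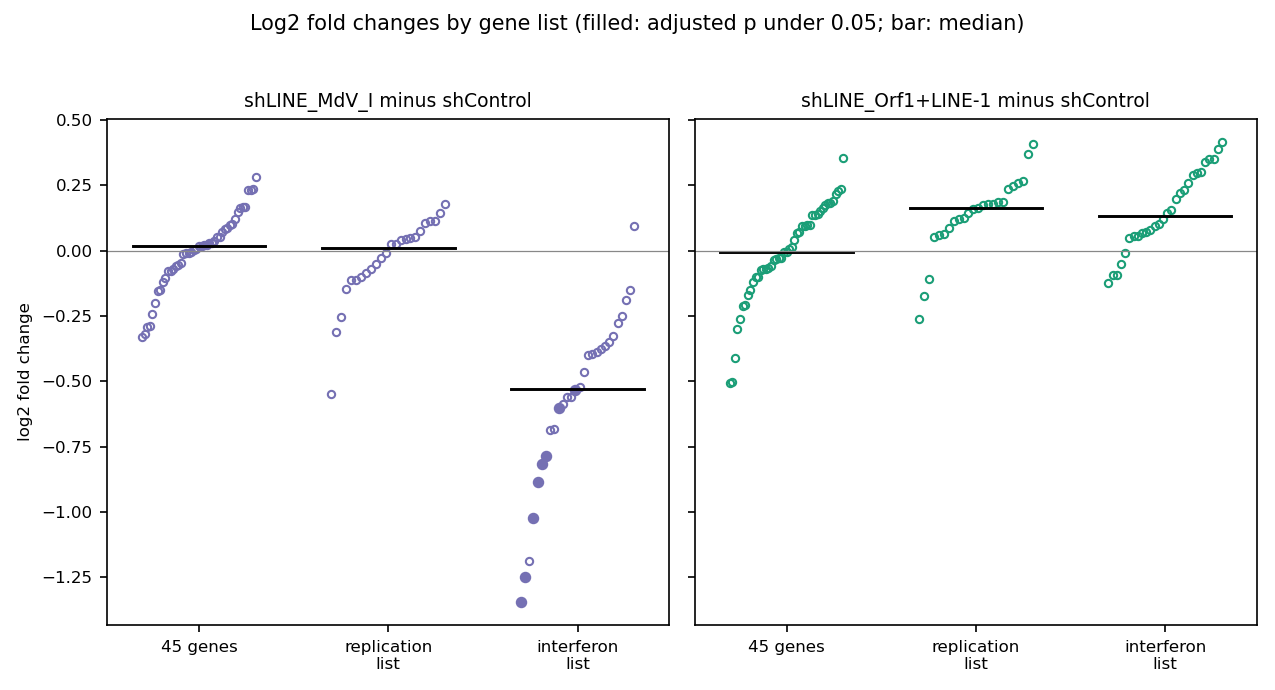
Log2 fold change (y axis) of the 45 genes, the 24 replication genes and the 28 interferon-response genes in shLINE_MdV_I (left) and shLINE_Orf1+LINE-1 (right) against shControl, sorted within a list. Filled points have an edgeR adjusted p under 0.05 and bars are medians; the interferon list has its median at -0.53 with 8 filled points in shLINE_MdV_I, and the 45 genes are centred near 0 in both panels with no filled point.

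The same promoters were searched for the letters of the interferon-stimulated response element, to set the genes that fell beside the 45. GAAANNGAAA (TTTCNNTTTC on the other strand) was found in 3.99% of the 27025 genes. Of the 45 genes, 2 of the 39 with a promoter held it (5.13%), Apobec3 and Cbx5, and of 24 interferon-response genes with a promoter 16 held it (66.7%). That list was drawn up for its response to interferon, so its high share does not bear on which of its genes fell. Irf7, which fell, was not among the 16, and genes without a promoter in that table were not searched. The windows show the match in capitals for Bst2, B2m and Oas1a, which fell, and for Apobec3 and Cbx5.
Bst2, chr8:71537578-71537617, minus strand: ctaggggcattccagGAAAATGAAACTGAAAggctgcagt
B2m, chr2:122147533-122147572, plus strand: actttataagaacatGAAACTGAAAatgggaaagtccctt
Oas1a, chr5:120907526-120907565, minus strand: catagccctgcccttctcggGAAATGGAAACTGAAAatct
Apobec3, chr15:79892253-79892292, plus strand: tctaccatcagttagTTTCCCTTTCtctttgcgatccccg
Cbx5, chr15:103215458-103215497, minus strand: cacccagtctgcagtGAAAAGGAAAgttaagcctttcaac
In shLINE_MdV_I against shControl, Cbx5 had a log2 fold change of 0.02 ± 0.09 (SE).

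Other genes of the same pathways gave few calls, in tests that called 0.944% of all genes or fewer. In 7 wider lists, which cover further H3K9 and H4K20 factors, Polycomb subunits, co-repressors, chromatin assembly, cytoplasmic restriction, small RNA factors and RNA decay, 156 of 159 listed genes were tested. Across the 5 groups 1 of them was called, Bst2, where 0.944% of all genes were. In shLINE_MdV_I against shControl it was again Bst2 alone (0.594% of all genes). edgeR called 0 of 156 against shControl in shLINE_Orf1 (0.178%), shLINE_Orf2 (0.192%) and shLINE_Orf1+LINE-1 (0.139%). At an unadjusted p under 0.05 there were 23 of 156 in shLINE_Orf1 (10.5% of all genes), 6 in shLINE_Orf2 (7.01%) and 18 in shLINE_Orf1+LINE-1 (8.76%). Of 16 genes of the germ line piRNA pathway, 7 had enough counts to be tested and 0 were called across the 5 groups, with 0 at an unadjusted p under 0.05.

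The authors' deposited table holds the output of a mixed model, named for young LINE-1. It lists all 45 genes among 17921. Of the 45, only Chaf1a had a p under 0.05 in the authors' deposited table, with an estimate of 0.314 on a scale that is not named and a p of 0.0259, where 2.66% of all genes did. The adjusted p in the authors' deposited table is 1 for every gene.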

How the data were processed

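The data are RNA-seq of 15 libraries, made by a protocol the labels spell SMRT-seq2 from GFP-sorted mouse neural progenitor cells, and the authors deposited 1 table of expected counts per Ensembl transcript, without normalization. The submitters' processing notes name cutadapt, RSEM and mm10, with no role, order or version; the annotation release is not given in the sources used here, nor is whether strand was used. The authors' deposited table of a mixed model gives estimates, treated here as a score of unnamed scale, and p-values. In the count table, 110115 of 111462 transcripts matched GENCODE M21 by stable identifier, and those unmatched held at most 0.650% of a library's counts. Counts were summed per gene, rounded and fitted with edgeR 4.0.16 (R 4.3.3) in 1 model of 5 groups, with TMM scaling, filterByExpr at a minimum count of 10, the robust quasi-likelihood test and Benjamini-Hochberg adjustment over 15141 genes. The threshold for a call was an adjusted p of 0.05. For log2 CPM, the prior count was 2. TPM was computed from transcript counts and M21 lengths. A step with simulated counts of known fold changes was run first.

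DESeq2 1.42.0 and limma 3.58.1 (voom with quality weights), other scalings and filters, a replicate block, the description number as a covariate, the compared groups alone and each library left out were tried as alternatives. The pair of lists beyond the 45 genes was also recomputed without the libraries that stand apart, which was added after seeing the data. The 45 genes and all lists were chosen with earlier results of these data known. Named genes are those called and, with fewer than 10 called, the 3 with the smallest p in each test; other genes shown were chosen after their values were seen. Depth was between 39204327 and 51070601 gene counts, so the spread between libraries, and not counting error, limited the precision for most genes.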

Additional observations from a re-analysis of the deposited data

How the results depend on the processing

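Of 123 recomputed counts of called genes among the 45, over 25 alternative settings, 114 stayed at 0, as did every count with 1 library left out (from 0 to 0). The others were as follows. Across the 5 groups, DESeq2 called 1 (Chaf1b), limma-voom called 3 (Chaf1b, Pphln1 and Chaf1a), and leaving out shLINE_Orf1 replicate 1 and shControl replicate 2 together gave 3 (Chaf1b, Pphln1 and Xrn1). limma-voom called 1 in shLINE_Orf2 (Chaf1a) and 1 in shLINE_MdV_I (Mbd1) against shControl, 1 in shLINE_Orf1+LINE-1 against shLINE_Orf1 (Pphln1), and 2 in shLINE_MdV_I against the mean of shLINE_Orf1 and shLINE_Orf2 (Pphln1 and Kdm1a). In that last comparison the description number as a covariate gave 2 (Kdm1a and Ehmt1), though this number is partly tied to the groups compared. Leaving out both libraries gave 1 there (Kdm1a). The cause of these differences was not tested. Of 369 recomputed values of single named genes, 11 passed the threshold where the reported one did not, and 0 changed sign.

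Without a scaling factor, 37 of the 45 estimates were negative in shLINE_Orf1 against shControl, with a median of -0.21, where the median of all genes was -0.08. With the replicate number as a block, 0 of 45 were called in each test. The numbers did not pair the libraries: the deviations of 30 same-numbered pairs from their group means correlated between -0.271 and 0.180, 3 of them over 0.1, and 4 of 15 libraries correlated best with one of their own number. With 3 libraries a group, a gene that was not called may still differ by any size inside its interval.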
